A study of Mus musculus with 6 samples.

Results

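Megalin is the large endocytic receptor of the kidney proximal tubule, and the 9 genes described here encode its receptor complex and the proteins that bind its cytoplasmic tail: Lrp2, Cubn, Amn, Lrpap1, Dab2, Gipc1, Ankra2, Myo6 and Synj2bp. Every probe set (a group of short probes that reads 1 transcript) that the platform annotation assigns to 1 of these symbols alone was taken, which gave 24 of 45037 probe sets and at least 1 for each gene. Kidney RNA of 6 male mice aged 10 weeks had been hybridised to Affymetrix arrays, 1 array per mouse. The 3 mice called ICD here carried the soluble intracellular domain of megalin in the heterozygous state, and their 3 littermate controls were wild type. The sources used here do not name the promoter or locus that drives the fragment, the strain, or the part of the Lrp2 transcript that the allele contains, so what the Lrp2 probe sets say about the genotype labels is limited. Values are log2 expression, differences are ICD minus wild type, and replicates are separate animals. In whole kidney, fewer cells of a type and less RNA per cell cannot be told apart. The array labelled wild type 3 stood apart from the others in several measures; whether its label and tissue sampling match the other controls was not tested, so values are also given without it.

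Megalin, the product of Lrp2, and cubilin, the product of Cubn, sit in the brush border of the proximal tubule and take up filtered proteins, vitamin carriers and hormones. Cubilin has no membrane span and depends on amnionless (Amn) to reach the surface, while the chaperone RAP (Lrpap1) keeps new megalin from binding ligands on its way out of the endoplasmic reticulum. Adaptors read short motifs in the tail of megalin and connect it to clathrin coats and to the motor myosin VI (Myo6).

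The 250 bases upstream of the RefSeq transcription start (GRCm38.p6) are shown for the 3 receptor genes and for Dab2, the adaptor with 2 listed starts and the gene whose probe sets gave the only separation of the groups. Capitals mark the HNF1 half-site GTTAAT and the GC box GGGCGG on either strand. HNF1 factors act on many proximal tubule genes.
Lrp2, chr2:69586030-69586279, minus strand: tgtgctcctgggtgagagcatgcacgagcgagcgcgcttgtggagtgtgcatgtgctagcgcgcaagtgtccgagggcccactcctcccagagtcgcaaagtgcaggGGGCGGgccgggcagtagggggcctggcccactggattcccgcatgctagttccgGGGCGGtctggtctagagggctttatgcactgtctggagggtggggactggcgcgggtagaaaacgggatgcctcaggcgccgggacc
Cubn, chr2:13491877-13492126, minus strand: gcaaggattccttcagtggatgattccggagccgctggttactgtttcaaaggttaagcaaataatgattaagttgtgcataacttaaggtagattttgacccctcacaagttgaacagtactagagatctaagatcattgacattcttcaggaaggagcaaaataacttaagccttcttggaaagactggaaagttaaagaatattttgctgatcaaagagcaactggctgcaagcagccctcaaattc
Amn, chr12:111270846-111271095, plus strand: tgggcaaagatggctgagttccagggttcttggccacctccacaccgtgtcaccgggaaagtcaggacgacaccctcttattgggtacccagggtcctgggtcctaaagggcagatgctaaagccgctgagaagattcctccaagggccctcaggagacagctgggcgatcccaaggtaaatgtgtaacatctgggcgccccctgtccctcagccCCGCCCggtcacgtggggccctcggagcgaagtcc
Dab2 first start, chr15:6299539-6299788, plus strand: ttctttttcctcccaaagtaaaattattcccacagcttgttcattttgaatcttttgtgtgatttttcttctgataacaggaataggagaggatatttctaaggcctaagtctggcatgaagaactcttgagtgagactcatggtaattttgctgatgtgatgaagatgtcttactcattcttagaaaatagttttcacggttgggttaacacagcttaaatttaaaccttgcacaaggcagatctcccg
Dab2 second start, chr15:6386498-6386747, plus strand: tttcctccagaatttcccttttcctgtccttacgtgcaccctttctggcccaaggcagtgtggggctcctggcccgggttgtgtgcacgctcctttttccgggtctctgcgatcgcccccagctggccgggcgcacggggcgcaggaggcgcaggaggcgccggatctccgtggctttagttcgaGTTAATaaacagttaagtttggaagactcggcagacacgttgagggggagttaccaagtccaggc
The Lrp2 stretch was 66.4% G or C with 2 GC boxes, and the Amn stretch 61.2% with 1. The Cubn stretch was 39.6% G or C and held neither motif. The Dab2 starts differed: the first stretch was 36.8% G or C with neither motif, and the second was 60.0% with 1 half-site. Stretches were listed for 8 of the 9 genes, 9 in all. The half-site was in 1 of these 9 and in 6.4% of all 32851 stretches of this length, and the GC box in 4 of 9 and 32.7%. These are matches of letters only.

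Most probe sets of the complex had close mean levels in both groups, though the intervals of some were wide. In limma's test, 0 of the 24 probe sets had an adjusted p under 0.05, as did 0% of all 45037, and 1 had an unadjusted p under 0.05, against 5.86% of all. Differences ran from -0.41 to 0.41 with a median of 0.032, and 21 of 24 lay within 0.15 of 0. The 95% confidence interval included 0 for 23 probe sets and stayed within 0.5 either way for 21. The ICD mean was the higher one for 19 of 24, against 47.2% of all probe sets. Without the array labelled wild type 3, it was the higher one for 11 of 24 and the median difference was -0.0095. When ICD 2 was left out instead, these were 12 of 24 and -0.00027, and without wild type 1 they were 18 of 24 and 0.059. The groups did not overlap for 1 of 24, a Dab2 probe set with ICD higher, while 10.5% of all probe sets had no overlap in either direction and 5.44% had none with ICD higher (5.05% with ICD lower). Of the 22 bright members, those whose mean is no lower than the median probe set, 18 had a higher ICD mean (all bright probe sets 50.1%) and 2 differed by 0.25 or more either way (all bright probe sets 5.16%), 1 of Lrp2 and 1 of Dab2.

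**Figure D1:**
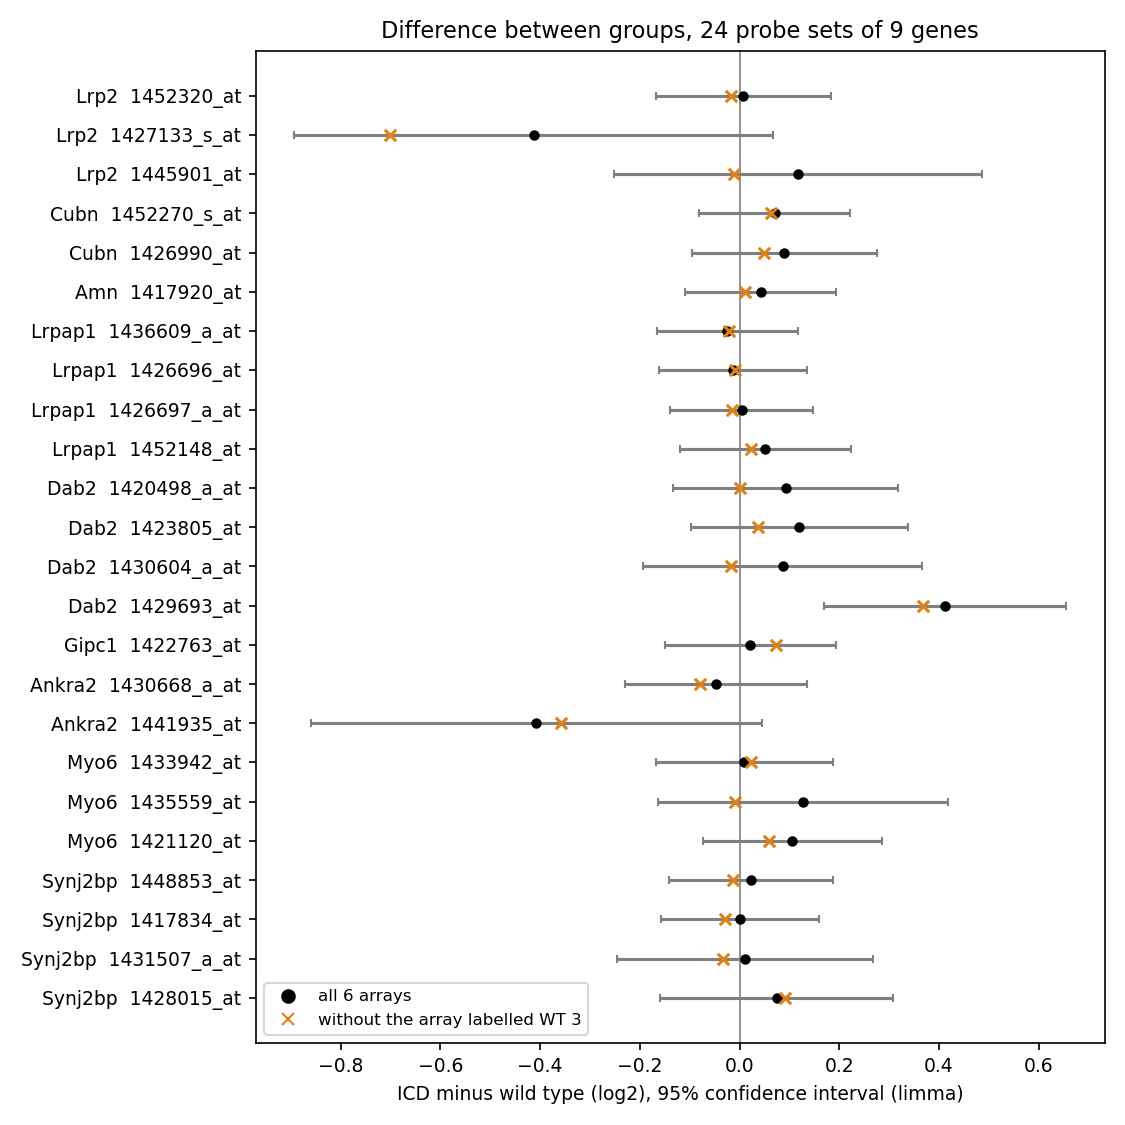
Difference between the groups (ICD minus wild type, log2, horizontal axis) of each of the 24 probe sets with all 6 arrays (points, bars are 95% confidence intervals from limma) and without the array labelled wild type 3 (crosses). Only the interval of Dab2 1429693_at leaves out 0, and Lrp2 1427133_s_at goes from -0.41 to -0.70 without that array.

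Lrp2 itself was read by 3 probe sets that did not move together. Probe set 1452320_at read 12.77, 12.93 and 12.80 in the ICD mice and 12.92, 12.78 and 12.78 in the wild type mice. ICD 2 and wild type 1 were its highest arrays, the groups overlapped, and the difference was 0.0079 (95% interval -0.17 to 0.18, limma adjusted p = 0.998). Probe set 1427133_s_at read 12.25, 12.37 and 12.26 in the ICD mice and 13.01, 12.97 and 12.13 in the wild type mice. Here wild type 1 and 2 lay at least 0.61 above every other array, and the array labelled wild type 3 was the lowest of all. The difference was -0.41 (95% interval -0.89 to 0.068, limma adjusted p = 0.891), a mean 1.33-fold higher in wild type, with an SD of 0.064 over the ICD arrays and 0.50 over the wild type arrays. The difference grew to -0.70 (95% interval -0.88 to -0.52, limma adjusted p = 0.186) when the array labelled wild type 3 was left out. Without wild type 1 it was -0.26 (95% interval -0.76 to 0.24). The third, 1445901_at, read 7.21, 6.83 and 6.93 in the ICD mice and 6.77, 7.23 and 6.62 in the wild type mice, with overlap. Its difference was 0.12 (95% interval -0.25 to 0.49, limma adjusted p = 0.981), which went to -0.011 when the array labelled wild type 3 was left out.

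**Figure D2:**
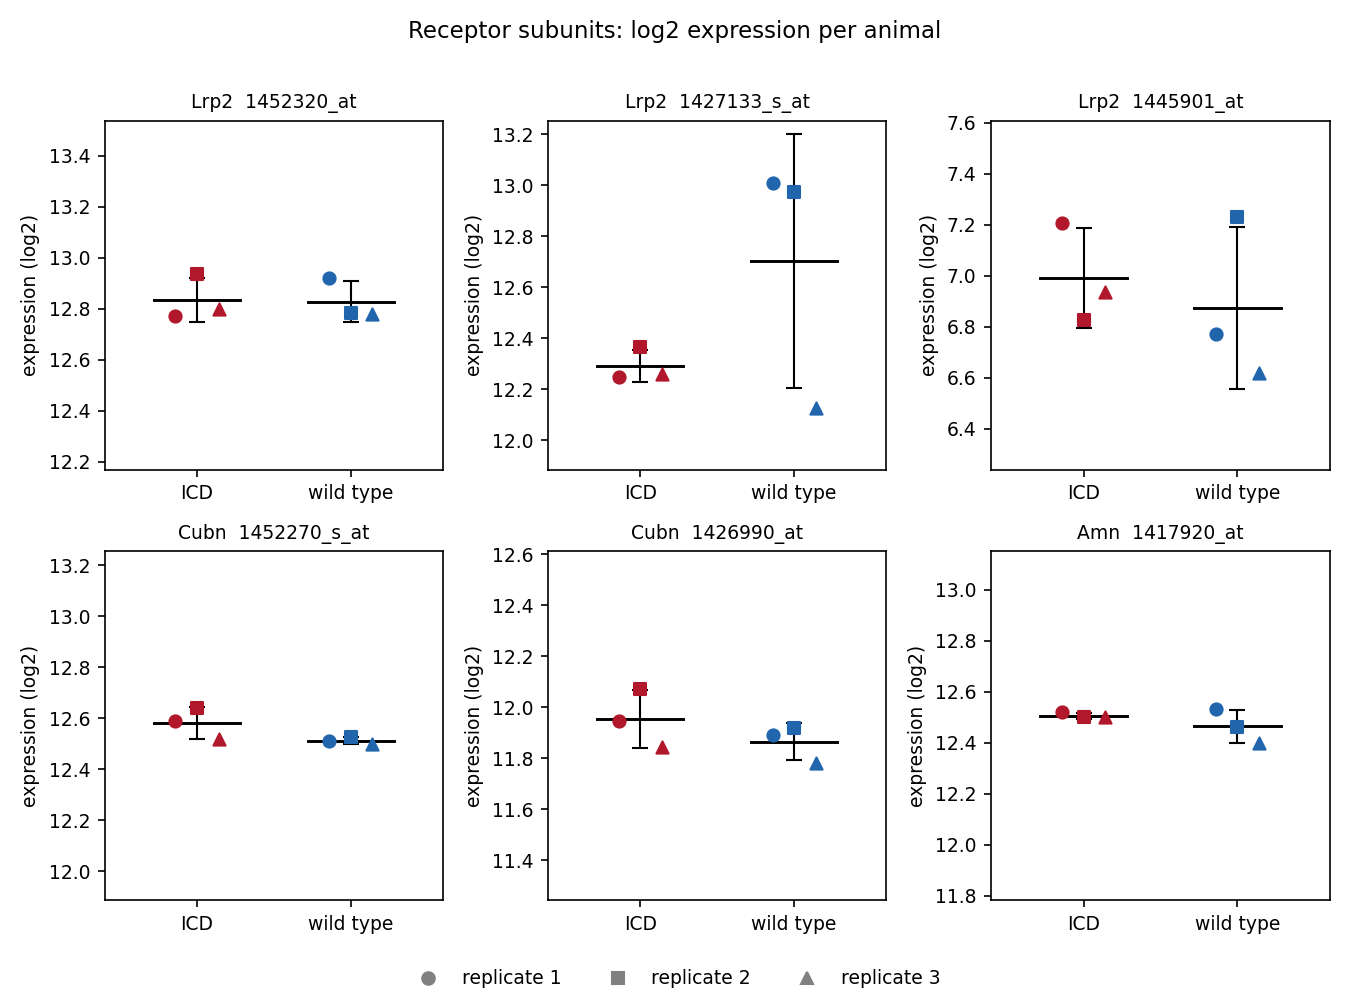
Log2 expression of the 3 Lrp2, 2 Cubn and 1 Amn probe sets in each mouse (points, red ICD, blue wild type, symbols give the replicate number), with group means (lines) and SD (bars, n = 3); all vertical axes span the same log2 range. Lrp2 1427133_s_at is high in wild type 1 and 2 (13.01 and 12.97), and in every panel the groups overlap.

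The spread of 1427133_s_at over the 6 arrays (SD 0.39) was above that of 98.4% of the 22519 bright probe sets (mean of at least 6.64). That of 1452320_at (SD 0.075) was above 29.6% of them. To set their changes side by side, the value of 1452320_at was subtracted from that of 1427133_s_at on each array. This gap was -0.52, -0.57 and -0.54 in the ICD mice and 0.091, 0.19 and -0.65 in the wild type mice. On this measure the array labelled wild type 3 lay beside the ICD arrays. Its podocyte and urothelial marker levels (mean log2 deviations from the 6-array means) were -0.24 and 0.042. Wild type 1 and 2 had podocyte levels of -0.083 and -0.32 and urothelial levels of 0.11 and 0.065. Both lists have groups without overlap, so the side on which this array falls is given by that choice. These levels do not bear on its label, which was not tested. The groups' mean gaps differed by -0.42 (exact 2-sided permutation test, p = 0.4, where 3 against 3 arrays can give no p below 0.1). The mean gap differed by -0.68 without the array labelled wild type 3, -0.31 without wild type 1 and -0.26 without wild type 2. The suffix _s_at marks probes that may match transcripts of more than 1 gene. Both probe sets are assigned to Lrp2, they changed by unequal amounts across these mice, and they give no single direction for the gene.

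The genes whose pattern was most like that of 1427133_s_at were ranked by Pearson's r over the 6 arrays among 9523 bright probe sets of other genes with an SD of at least 0.1. A top rank among so many candidates is a description, and no p is given. Prss23, a serine protease gene, ranked first (r = 0.997). It read 9.82 and 9.73 in wild type 1 and 2 and 8.95 to 9.14 on the other 4 arrays. Zfp462, a zinc finger gene (r = 0.989), read 7.90 and 7.88 in wild type 1 and 2 and 7.51 to 7.63 elsewhere. Pak6, a kinase gene (r = 0.977), read 7.62 and 7.60 in wild type 1 and 2 and 6.93 to 7.27 elsewhere. Me1, the cytosolic malic enzyme (r = 0.985), read 13.39 and 13.36 in wild type 1 and 2 and 13.07 to 13.09 elsewhere. Car4, a membrane-bound carbonic anhydrase (r = 0.981), read 12.12 and 12.13 in wild type 1 and 2 and 11.89 to 11.94 elsewhere. All 5 were highest in the same pair of wild type mice, which follows from ranking on 1427133_s_at. Without the 2 arrays farthest from the median of 1427133_s_at, r was 0.964 for Prss23, 0.954 for Pak6 and 0.851 for Zfp462. It was 0.49 for Me1 and 0.436 for Car4, whose likeness rests on those arrays.

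**Figure D3:**
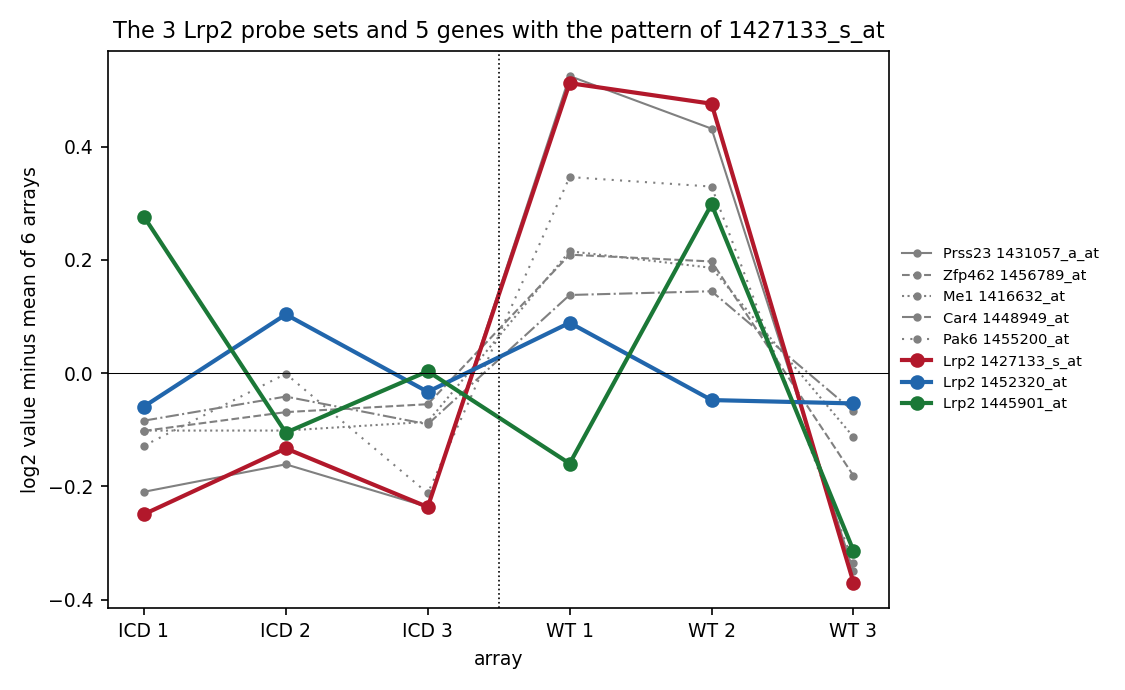
Deviation from the 6-array mean (log2, vertical axis) on each array (horizontal axis) for the Lrp2 probe sets and the genes most like 1427133_s_at; lines join the values of 1 probe set and imply no order of the arrays. Prss23, Zfp462, Me1, Car4 and Pak6 are high with 1427133_s_at in wild type 1 and 2, where 1452320_at reads 12.92 and 12.78.

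Other genes followed the other Lrp2 probe sets. For 1452320_at these were Mmrn2 (r = 0.996), Fundc1 (0.995), Rnase4 (0.993), Rtn4 (0.992) and Tbc1d16 (0.988). Without the 2 arrays farthest from the median of 1452320_at, r was 0.964, 0.980, 0.745, 0.824 and 0.725 in the same order. Rnase4, a secreted ribonuclease, read 7.48, 9.49 and 7.61 in ICD and 9.04, 7.41 and 7.40 in wild type mice, high on the same 2 arrays as 1452320_at. For 1445901_at they were Pcolce (0.989), Prdx4 (0.982), Acly (0.981), Acaca (0.978) and Nudt21 (0.978). With its own 2 farthest arrays left out, r was 0.938, 0.925, 0.906, 0.973 and 0.872 in the same order. No gene was in more than 1 of the 3 rankings, which follows from the low correlations among the Lrp2 probe sets (r = 0.35, -0.42 and 0.25).

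The genes beside Lrp2 on chromosome 2 were measured to set the receptor beside its surroundings. Of the 8 genes on each side in RefSeq order, 14 had probe sets, 26 in all. In limma's test 0 of them had an adjusted p under 0.05 and 0 an unadjusted one (0% and 5.86% of all probe sets). The 14 bright ones differed by -0.049 to 0.19. The groups did not overlap for 1 of 26, against 10.5% of all probe sets in either direction. This was 1436505_at of Ppig, a nuclear cyclophilin. It read 8.53, 8.63 and 8.49 in ICD and 8.49, 8.24 and 8.38 in wild type mice, a difference of 0.18. The nearest values were 8.494 and 8.489. Ppig 1434475_at and 1435341_at overlapped and differed by 0.19 and -0.046.

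Cubilin and amnionless, the co-receptor, overlapped between the groups at all 3 of their probe sets. Cubn 1452270_s_at read 12.59, 12.64 and 12.52 in the ICD mice and 12.51, 12.53 and 12.50 in the wild type mice. Cubn 1426990_at read 11.95, 12.07 and 11.84 in the ICD mice and 11.89, 11.92 and 11.78 in the wild type mice. Both were highest in ICD 2 and lowest on the array labelled wild type 3, and the groups overlapped in both. Their differences were 0.070 (95% interval -0.081 to 0.22, limma adjusted p = 0.966) and 0.090 (95% interval -0.10 to 0.28, limma adjusted p = 0.96). Leaving out ICD 2 gave 0.040 and 0.031. Their SDs over the 6 arrays were above those of 10.9% and 43.5% of all probe sets. Amn 1417920_at read 12.52, 12.50 and 12.50 in the ICD mice and 12.53, 12.46 and 12.40 in the wild type mice. Wild type 1 was its highest array and the array labelled wild type 3 its lowest, and the difference was 0.042 (95% interval -0.11 to 0.19, limma adjusted p = 0.983), and 0.011 with that array left out. Its SD over the 6 arrays was above that of only 6.70% of all probe sets.

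The chaperone gene Lrpap1 had the 3 probe sets of lowest spread among the 24, while its remaining one, 1452148_at (SD 0.075), varied more than Amn (SD 0.048). Its brightest probe set, 1436609_a_at, read 13.70, 13.76 and 13.76 in the ICD mice and 13.77, 13.76 and 13.77 in the wild type mice. Probe set 1426696_at read 12.69, 12.80 and 12.76 in the ICD mice and 12.76, 12.76 and 12.77 in the wild type mice. ICD 1 was the lowest array in both. Their differences were -0.024 (95% interval -0.17 to 0.12, limma adjusted p = 0.992) and -0.014 (95% interval -0.16 to 0.13, limma adjusted p = 0.996). Probe set 1426697_a_at read 11.02, 11.02 and 11.04 in the ICD mice and 11.03, 11.05 and 10.98 in the wild type mice, and its SD was above that of only 0.484% of all probe sets. Probe set 1452148_at read 10.71, 10.83 and 10.80 in the ICD mice and 10.68, 10.83 and 10.67 in the wild type mice. Both overlapped between the groups and differed by 0.0040 and 0.051. With 1 array left out, the difference was -0.034 to -0.0057 for 1436609_a_at and 0.022 to 0.10 for 1452148_at.

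Dab2, the adaptor that binds megalin's tail and recruits clathrin, gave the only separation of the groups. Probe set 1429693_at read 8.52, 8.33 and 8.66 in the ICD mice and 8.26, 8.01 and 8.004 in the wild type mice. Every ICD value lay above every wild type value, and the highest wild type value was that of wild type 1. The difference was 0.41 (SE 0.11, 95% interval 0.17 to 0.66), a 1.33-fold higher mean in ICD, with an unadjusted limma p of 0.00425 and an adjusted p of 0.682, so it did not pass. Leaving out 1 array at a time gave 0.34 to 0.50.

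The other 3 Dab2 probe sets, which overlapped between the groups, followed a pattern of their own. Probe set 1420498_a_at read 12.47, 12.69 and 12.62 in the ICD mice and 12.62, 12.56 and 12.32 in the wild type mice. Probe set 1423805_at read 10.44, 10.65 and 10.53 in the ICD mice and 10.46, 10.55 and 10.26 in the wild type mice. Probe set 1430604_a_at read 9.78, 10.15 and 9.97 in the ICD mice and 10.04, 9.93 and 9.67 in the wild type mice. All 3 were highest in ICD 2 and lowest on the array labelled wild type 3. Their differences were 0.092 (95% interval -0.13 to 0.32, limma adjusted p = 0.974), 0.12 (95% interval -0.10 to 0.34, limma adjusted p = 0.95) and 0.087 (95% interval -0.19 to 0.37, limma adjusted p = 0.981). They became 0.0013, 0.038 and -0.018 when the array labelled wild type 3 was left out, while that of 1429693_at was 0.37. The 4 probe sets therefore give no common size of difference for Dab2.

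**Figure D4:**
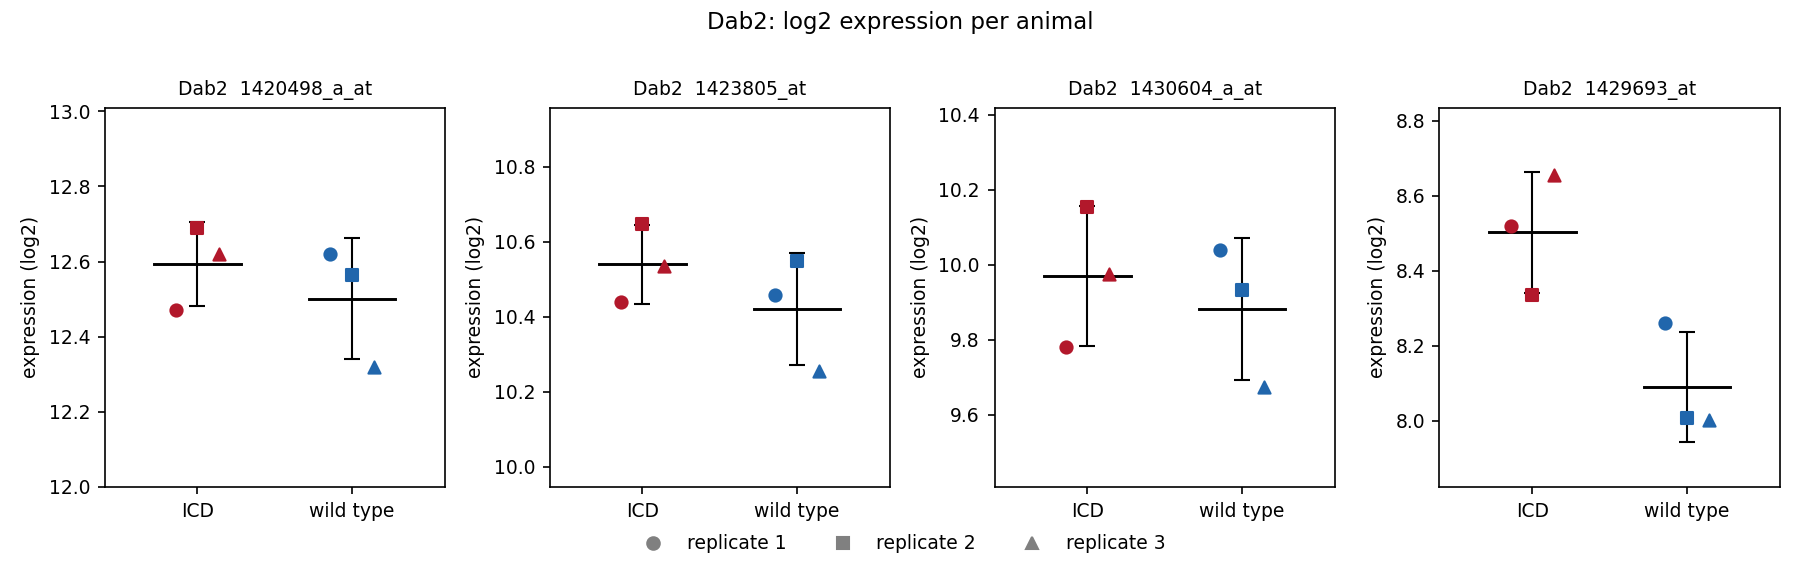
Log2 expression of the 4 Dab2 probe sets in each mouse (points, red ICD, blue wild type, symbols give the replicate number), with group means (lines) and SD (bars, n = 3); all vertical axes span the same log2 range. Only 1429693_at separates the groups (difference 0.41).

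Dab2 is also made outside the tubule, in macrophages among others, so markers of other cells are set beside it. The level of a marker list on an array is the mean deviation of its genes from their 6-array means. All 6 measured podocyte markers had groups without overlap, ICD higher, against 9.1% of all genes without overlap in either direction. None of the 6 passed limma's adjusted threshold, and all 6 had an unadjusted p under 0.05, against 3.94% of all genes. Their level was 0.14 to 0.27 in ICD and -0.32 to -0.083 in wild type mice. Macrophage markers had levels of -0.16 to 0.15 and -0.12 to 0.088, and endothelial markers of -0.032 to 0.19 and -0.39 to 0.25, both with overlap. The part of these cells in the Dab2 values was not tested.

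The remaining adaptors did not separate the groups. Gipc1, a PDZ-domain protein that links receptors to myosin VI, read 9.05, 9.17 and 9.09 in the ICD mice and 9.01, 9.05 and 9.18 in the wild type mice. Unlike most members it was highest on the array labelled wild type 3, and its difference was 0.022 (95% interval -0.15 to 0.19, limma adjusted p = 0.994). Ankra2, an ankyrin repeat protein that binds the tail, read 7.67, 7.77 and 7.69 in the ICD mice and 7.69, 7.89 and 7.69 in the wild type mice at 1430668_a_at. Wild type 2 was its highest array, and the difference was -0.047 (95% interval -0.23 to 0.13, limma adjusted p = 0.985). Its dim probe set 1441935_at read 5.13, 5.15 and 5.85 in the ICD mice and 5.52, 5.95 and 5.88 in the wild type mice. ICD 1 and 2 were lowest while ICD 3 lay among the wild type values, and the difference was -0.41 (95% interval -0.86 to 0.045, limma adjusted p = 0.877). Without ICD 1, ICD 2 or ICD 3 that difference was -0.29, -0.29 or -0.64.

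Synj2bp, a PDZ-domain protein of the outer mitochondrial membrane, had 4 probe sets with differences of 0.0014 to 0.074. The brightest, 1448853_at, read 11.63, 11.72 and 11.63 in the ICD mice and 11.62, 11.72 and 11.56 in the wild type mice. Probe set 1417834_at read 10.11, 10.23 and 10.14 in the ICD mice and 10.18, 10.20 and 10.10 in the wild type mice. Wild type 2 and ICD 2 were at or near the top in both, and the groups overlapped. Probe set 1431507_a_at read 9.76, 10.15 and 9.81 in the ICD mice and 10.00, 9.88 and 9.81 in the wild type mice, with ICD 2 alone above the rest. The dim probe set 1428015_at read 6.70, 6.39 and 6.76 in the ICD mice and 6.58, 6.47 and 6.58 in the wild type mice, where ICD 2 was instead the lowest. Its difference was 0.0033 without ICD 3 and 0.19 without ICD 2. Limma adjusted p for the 4 ran from 0.981 to 0.9997.

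Myo6, the motor that moves new endocytic vesicles along actin, had 3 probe sets. The brightest, 1433942_at, read 11.13, 11.34 and 11.32 in the ICD mice and 11.25, 11.23 and 11.28 in the wild type mice, a difference of 0.010 (95% interval -0.17 to 0.19, limma adjusted p = 0.998). Its wild type values all lay inside the ICD range. Probe set 1435559_at read 10.31, 10.04 and 10.14 in the ICD mice and 10.21, 10.13 and 9.76 in the wild type mice. Probe set 1421120_at read 8.77, 8.92 and 8.80 in the ICD mice and 8.82, 8.72 and 8.63 in the wild type mice. Both were lowest on the array labelled wild type 3 and overlapped between the groups. Their differences of 0.13 and 0.11 became -0.010 and 0.059 without it.

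Across the 9 genes, 1 array lay low more often than the others. The array labelled wild type 3 was the lowest for 15 of 24 probe sets, against 16.8% of all probe sets and 19.5% of bright ones. Among the 15 were both Cubn, the Amn and all 4 Dab2 probe sets. Some were near ties: Dab2 1429693_at read 8.004 on that array and 8.008 in wild type 2. Cubn 1452270_s_at read 12.497 on it and 12.511 in wild type 1. ICD 2 was the highest for 11 of 24, against 19.7% of all. Relative to the mean of the other 5 arrays, the members on the array labelled wild type 3 had a median of -0.10, with 19 of 24 below 0, against 47.5% of all probe sets. The lowest were Lrp2 1427133_s_at (-0.44) and Myo6 1435559_at (-0.41), and the highest was the dim Ankra2 probe set (0.36).

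Markers of the first proximal tubule segments (S1 and S2), where megalin is abundant, were low on the same array. Of 12 markers, 10 were lowest there, and the list's level was -1.07, against 0.045 to 0.32 on the others. Slc5a12, a lactate transporter, read 4.12 there and 9.27 to 10.47 elsewhere. Slc34a3, a phosphate transporter, read 6.46 and 8.68 to 9.35. Markers of the S3 segment (0.092, others -0.19 to 0.27) and markers shared by the segments (-0.0019, others -0.056 to 0.040) lay within the range of the other arrays. By group, the level of the shared markers did not overlap, at 0.018 to 0.040 in ICD and -0.056 to -0.0019 in wild type mice. Of the 8 shared markers measured, 4 had a higher ICD mean. On that array Lrp2 1452320_at was -0.064, Cubn -0.059 and -0.15, and Amn -0.10 relative to the mean of the others. The part of that array's marker levels in the members' differences was not tested.

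**Figure D5:**
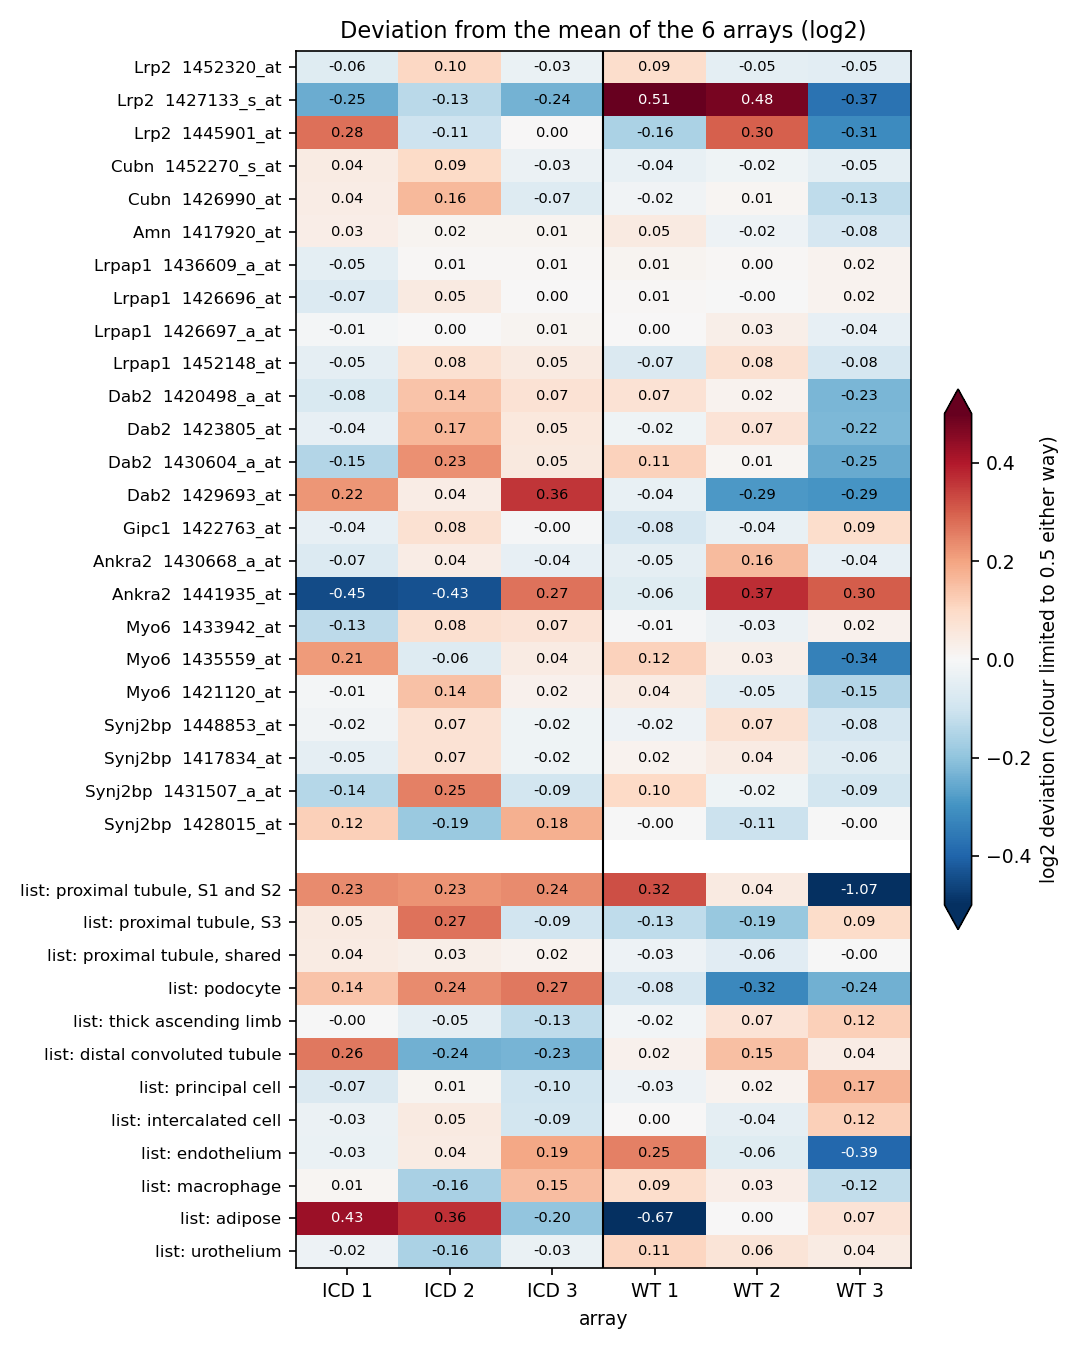
Deviation of each of the 24 probe sets from its mean over the 6 arrays (log2; colours stop at 0.5 either way), and below them the level of each marker list. The column of the array labelled wild type 3 is the lowest for all 4 Dab2 probe sets and for the S1 and S2 markers (-1.07). At Dab2 1429693_at wild type 2 is nearly as low (8.008 against 8.004).

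Kidney markers were high in all 6 mice: Kap, an androgen-regulated gene of the proximal tubule, read 14.99 to 15.11 and Umod, the uromodulin gene of the thick ascending limb, 14.32 to 14.43. List levels in ICD and in wild type mice were -0.13 to -0.0023 and -0.015 to 0.12 for the thick ascending limb, and -0.24 to 0.26 and 0.022 to 0.15 for the distal convoluted tubule. They were -0.10 to 0.013 and -0.025 to 0.17 for principal cells, and -0.094 to 0.046 and -0.044 to 0.12 for intercalated cells. They were -0.20 to 0.43 and -0.67 to 0.069 for adipose genes, and -0.16 to -0.024 and 0.042 to 0.11 for urothelial genes, the latter without overlap.

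The endocytic machinery that the receptors use was covered by 5 lists, of whose 53 genes 48 were measured, each by its brightest probe set. In limma's test 0 passed in either direction, and 1 had an unadjusted p under 0.05 (2.08%, against 3.94% of all genes). The groups did not overlap for 5 (10.4%, against 9.1% of all genes). The ICD mean was higher for 26 and lower for 22, with a median difference of 0.0067, against -0.012 over 18193 genes. Of 6 other genes for tail-binding proteins, 2 had a higher ICD mean (median -0.013). Mapk8ip2 and Mapk8ip1, scaffolds of JNK signalling, differed by -0.084 (95% interval -0.27 to 0.10, with 1 array left out -0.14 to -0.029) and 0.053 (95% interval -0.16 to 0.26, with 1 array left out -0.012 to 0.13). Of 8 partners of the adaptors, 4 had a higher ICD mean (median 0.011). Synj2 and Synj1, inositol lipid phosphatases, differed by -0.11 (95% interval -0.29 to 0.062, with 1 array left out -0.14 to -0.053) and 0.064 (95% interval -0.088 to 0.22, with 1 array left out 0.027 to 0.090).

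Of 12 clathrin coat genes, 6 had a higher ICD mean (median 0.0052). Fcho2, a factor of early coated pits, differed by 0.14 (95% interval -0.069 to 0.34, with 1 array left out 0.068 to 0.19). Eps15l1, a coat scaffold, differed by -0.11 (95% interval -0.29 to 0.063, with 1 array left out -0.17 to -0.078). Among 18 endosome and lysosome genes, 13 had a higher ICD mean, against 43.9% of all genes. Their median was 0.010, and -0.014 without the array labelled wild type 3. Rab5c, an early endosome GTPase, differed by 0.11 (95% interval -0.053 to 0.27, with 1 array left out 0.058 to 0.14), and Ocrl, the phosphatase mutated in Lowe syndrome, by 0.090 (95% interval -0.17 to 0.35, with 1 array left out -0.0034 to 0.18).

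Of 4 receptor maturation genes, 1 had a higher ICD mean (median -0.043). Hsp90b1, a chaperone of the endoplasmic reticulum, read 11.93, 11.67 and 11.99 in ICD and 12.10, 12.23 and 12.00 in wild type mice. ICD 2 was the lowest, and the groups did not overlap. The difference was -0.24 (95% interval -0.48 to -0.012, with 1 array left out -0.30 to -0.15), with an unadjusted limma p of 0.0415 and an adjusted p of 0.84, so it did not pass. Calr, a lectin chaperone, differed by -0.073 (95% interval -0.28 to 0.14, with 1 array left out -0.13 to 0.025), with ICD 2 lowest as well.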

How the data were processed

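Kidney RNA of 6 mice was measured on 1 Affymetrix array each. The deposited values are log2 expression that the authors made with RMA, per the submitters' processing notes. RMA corrects background, forces arrays to 1 distribution and summarises probes by median polish, which would take out any change common to most genes on an array. Its version and any filter are not given in the sources used here. Array medians were 6.62 to 6.66, and the number of arrays limits the precision.

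After removal of 64 control rows, 45037 probe sets were tested. A single gene symbol was annotated for 34945 of them, several for 932 and none for 9160, and 34741 of the first were found in the RefSeq table of GRCm38.p6. The fit used lmFit and eBayes of limma 3.58.1 (R 4.3.3) with genotype as the only term, with Benjamini-Hochberg adjustment over all 45037 and a threshold of 0.05, and the scripts were tested on simulated data. Members and lists were chosen with earlier results of these data known. Named were every member probe set, the 2 genes of each pathway list with the largest absolute difference and any past the threshold, the 5 genes most like each bright Lrp2 probe set, and markers on which 1 array stood apart. Promoter stretches came from RefSeq. Alternatives were a replicate block, leaving out each array, further normalization, another variance prior, array weights, a filter on dim probe sets and the mean of a gene's probe sets.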

Additional observations from a re-analysis of the deposited data

How the results depend on the processing

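Under every one of the 12 alternative settings, 0 member probe sets had a limma adjusted p under 0.05, with the smallest member value between 0.186 and 0.999, and no pathway gene passed either. Over all probe sets the count of calls was 0 with all arrays and 1 with a trended and robust prior and 1 when ICD 1, ICD 2 or the array labelled wild type 3 was dropped. The gap between the Lrp2 probe sets kept its sign, from -0.68 to -0.26 when 1 array was left out. Sign changes were seen in 12 of the 24 probe sets, none with a difference above 0.13 in size. Leaving out 1 array gave -0.040 to 0.016 for Lrpap1 1426696_at, -0.042 to 0.054 for Lrp2 1452320_at, -0.018 to 0.18 for Dab2 1430604_a_at, -0.015 to 0.072 for Gipc1 1422763_at, -0.027 to 0.078 for Myo6 1433942_at, -0.014 to 0.065 for Synj2bp 1448853_at, -0.034 to 0.025 for Synj2bp 1417834_at, -0.11 to 0.086 for Synj2bp 1431507_a_at, -0.015 to 0.020 for Lrpap1 1426697_a_at, -0.082 to 0.020 for Ankra2 1430668_a_at, -0.011 to 0.29 for Lrp2 1445901_at, -0.010 to 0.22 for Myo6 1435559_at. Quantile normalization of the deposited values again gave -0.0048 for Lrpap1 1426697_a_at, -0.0069 for Myo6 1433942_at, -0.0039 for Synj2bp 1417834_at. Centring the arrays on their medians gave -0.0034 for Lrpap1 1426697_a_at, -0.0060 for Synj2bp 1417834_at. Array weights gave -0.011 for Lrp2 1452320_at, -0.010 for Myo6 1433942_at, -0.013 for Synj2bp 1417834_at, -0.035 for Synj2bp 1431507_a_at. Over all probe sets the lowest weight was that of ICD 2 (0.74). The array labelled wild type 3 had 0.89, close to wild type 1 and 2 (0.93 and 0.95). Over all alternatives, list medians ran from -0.040 to 0.045 for tail binders, -0.028 to 0.023 for adaptor partners, -0.023 to 0.019 for the clathrin coat and -0.014 to 0.030 for endosome and lysosome genes, all with sign changes, and from -0.10 to -0.0020 for receptor maturation. The cause of these changes was not tested. Deviations of same-numbered arrays from their group means correlated at -0.028, -0.069 and -0.11 over bright probe sets. Those of differently numbered arrays correlated at -0.094 to 0.14. Whether the replicate numbers pair the mice is not stated, and deviations from means of 3 arrays cannot settle it. With the replicate number as a block, 0 members passed, as did 0 of all 45037 probe sets, and the gap was -0.42. In that setting 2 members had an unadjusted limma p under 0.05, and the share of all probe sets is not given here. The 2 dim probe sets have no value among bright probe sets alone. Arrays of 3 against 3 mice gave 95% intervals of 0.14 to 0.48 either way for the members, and a difference of 0.41 (Dab2 1429693_at) still had a limma adjusted p of 0.682, so differences of that size could go uncalled here.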
